A study of Homo sapiens with 6 samples.

Results

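The cytosolic ribosomal protein genes encode the protein parts of the ribosome that translates nuclear mRNAs. They were taken as every row whose gene symbol starts with RPL or RPS and ends in a number with or without A, X, L or L1, together with RPLP0, RPLP1, RPLP2 and RPSA. The rule found 84 of the 26255 genes listed, 52 for the large subunit and 32 for the small subunit. Of these, 77 are the main genes (46 large, 31 small) and 7 are paralogs, second copies of a main gene with a sequence of their own: RPL3L, RPL7L1, RPL10L, RPL22L1, RPL26L1, RPL39L and RPS27L. The symbol rule leaves out genes such as FAU, GNB2L1 and RPL36AL, which also encode ribosomal proteins and are described separately.

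RNA-seq was performed on 22RV1 cells, a human castration-resistant prostate cancer cell line, cultured in RPMI medium with fetal bovine serum and treated for 24 h with DMSO (vehicle, 3 samples) or with 10 nM bruceantin (BCT, 3 samples). Levels are FPKM as deposited, which scale the fragments of a gene by its transcript length and by the mapped fragments of the sample, and are given as mean ± SD of 3 samples. The epithelial markers KRT8, KRT18 and EPCAM and the prostate factor FOXA1 were between 59.2 and 1148 FPKM in all samples, and the androgen target KLK3 was between 0.863 and 9.76 FPKM. PTPRC (leukocytes) and PECAM1 (endothelium) were at most 0.036 and 0.020 FPKM, and COL1A1 (fibroblasts) was 1.23 to 1.55 FPKM with DMSO and 5.04 to 6.31 FPKM with BCT; its part in the results was not tested.

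Each ribosome carries a single copy of most of these proteins, so their mRNAs are among the most abundant in growing cells and are made in similar amounts. The mRNAs of the family begin with a 5′ terminal oligopyrimidine (TOP) tract, a C followed by a run of pyrimidines, through which their translation is tied to growth signals by mTOR and LARP1. Bruceantin is a quassinoid, a plant compound class known for blocking the peptidyl transferase centre of the ribosome. The comparison asks how the mRNAs for the ribosome itself stood after 24 h of BCT.

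The start of the transcript is shown first, because it separates most main genes from most paralogs. Of the 84 genes, 67 were matched to a promoter in the RefSeq table on GRCh38.p14. A C followed by at least 4 pyrimidines on the transcribed strand, beginning within 6 bases of the annotated start, was found in 54 of 62 main genes (87.1%) and in 1 of 5 paralogs, against 28.5% of all 27305 genes in the table. With at least 7 pyrimidines after the C, the shares were 74.2% of the main genes and 7.35% of all genes. The windows below run 5′ to 3′ from 12 bases before the annotated start over 30 bases, with the matching run in capitals. RPL3, RPS24, RPS26 and RPL24 are shown as genes with large and small changes, and the others as paralogs and their main genes.
RPL3 (chr22:39319606-39319635, minus strand): aggccgaccggCCTCTaccggcgggatttg
RPS24 (chr10:78033851-78033880, plus strand): cgaatcgtggttCTCTTTTCCTCCTTggct
RPS26 (chr12:56041906-56041935, plus strand): acacataacctcgattttCTTCCgccatcc
RPL24 (chr3:101686701-101686730, minus strand): ccatgattCTCTCTTTCTTTTCgccatctt
RPL22 (chr1:6199578-6199607, minus strand): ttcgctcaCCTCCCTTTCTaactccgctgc
RPL22L1 (chr3:170870178-170870207, minus strand): ggccgtagCTTCCTCTCTgctctcgcggcc
RPS27 (chr1:153990750-153990779, plus strand): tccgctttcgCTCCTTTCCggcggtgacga
RPS27L (chr15:63157460-63157489, minus strand): ttgatgccgagcgcagatcgcttgcagctt
RPL26 (chr17:8383176-8383205, minus strand): cagcgtgtagttCTCTTCCCTTTTgcggcc
RPL26L1 (chr5:172958717-172958746, plus strand): cttccaggggtcggcgaacgaaacgcggag
RPL7L1 (chr6:42879604-42879633, plus strand): aagtgcggcgccgtagctaggagcggacgc

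RPL22L1 was the paralog with a run at its start, whereas none began within 6 bases of the annotated start of RPS27L, RPL26L1 and RPL7L1. Both ends of the range of main genes held a run, of 14 bases in RPS24 and in RPL24 and of 5 bases in RPL3 and in RPS26. Among main genes with a run, 29 of 54 (53.7%) were called lower after BCT by the rule given below (median log2 fold change -0.87, BCT against DMSO). Of the 8 main genes without a run within 6 bases, RPL6, RPL9, RPL15, RPL17, RPL27, RPS4X, RPS15 and RPS29, 1 was called lower (12.5%, median -0.63). The share over all genes tested was 17.8%. In RPL9, RPL15, RPL17, RPL27 and RPS15 such a run lay further from an annotated start, so these genes are not shown to lack a TOP tract. As another sequence feature, the E-box CACGTG, which MYC binds, was in the 300 bases around the start of 6.45% of the main genes and of 8.78% of all genes.

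In BCT-treated cells, the main ribosomal protein genes were lower as a family. All 76 main genes tested had a negative log2 fold change in the deposited FPKM values, with a median of -0.83, a range of -1.94 to -0.29 and an SD of 0.30 over the genes. The median of all 12729 genes tested, those with a mean of at least 1 FPKM, was -0.04. At an FDR of 0.05 in limma, 75 main genes were lower and none was higher, where 42.8% of all genes tested were lower and 39.3% were higher. With an absolute log2 fold change above 0.85 in addition (the call rule used below), 36 of the 76 main genes (47.4%) were called lower, against 17.8% of all genes, and none was called higher, against 13.9% of all genes. In 75 main genes every BCT sample was below every DMSO sample, which held for 44.3% of all genes. RPL22 (-0.86) was the last gene past the threshold and RPS3 (-0.84) the first short of it. These directions rest on the scaling of the samples: after rescaling to equal FPKM sums the median of all genes moved to 0.72, that of the main genes to -0.06, and 31 main genes were positive.

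**Figure D1:**
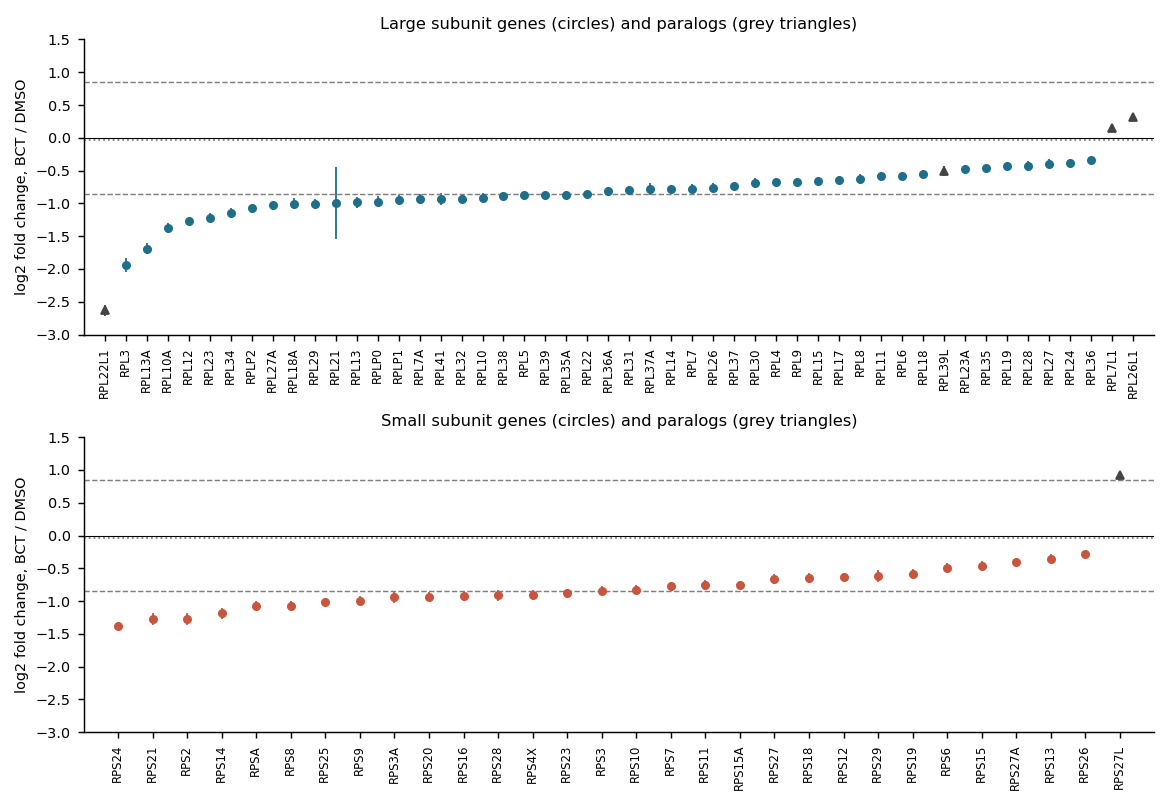
Log2 fold change (BCT against DMSO, log2(FPKM + 0.1)) of the ribosomal protein genes tested and reported here, in order, for the large subunit (top) and the small subunit (bottom). Circles are main genes, grey triangles are paralogs, vertical bars are ± 1 SE from limma, dashed lines mark ± 0.85 and the dotted line the median of all genes tested. All circles lie between -1.94 and -0.29, while RPL22L1 at -2.63 lies below them and RPS27L at 0.93 above.

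The single samples showed the same separation. Against the mean of the DMSO samples, the median main gene stood at 0.07, -0.11 and 0.04 log2 units in the DMSO samples and at -0.73, -0.86 and -0.90 in the BCT samples. The groups were thus apart by several times the spread within them. In FPKM, the main genes had a median level of 2132 with DMSO and 1175 with BCT. A mean above 1000 FPKM was reached by 60 main genes with DMSO and by 45 with BCT, and these 60 were most of the 106 genes in all that passed that level with DMSO. The order of levels within the family was largely kept, with a Spearman rho of 0.91 between the DMSO and BCT levels of the 76 main genes, which come from the same 6 libraries. The log2 fold change varied little with transcript length (rho -0.16), GC content (rho -0.08) or DMSO level (rho -0.06) across the same genes. RPL41, the shortest ribosomal protein, had the highest FPKM of the family (hg19 chr12:56510374-56511616), at 14991, 13290 and 15701 FPKM in the DMSO samples and 8275, 7672 and 7045 FPKM in the BCT samples (-0.94, SE 0.09, adjusted p = 1.8e-05 in limma).

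The family also held a smaller share of the FPKM sum in every BCT sample when the small RNA gene MIR6087 was set aside. MIR6087 held 43.5% to 55.3% of the FPKM sum of a DMSO sample and 31.7% to 32.5% of that of a BCT sample. Without it, the 84 genes made up 26.8%, 25.2% and 26.7% of the FPKM sum with DMSO and 20.1%, 19.3% and 19.0% with BCT, a difference of -6.75 percentage points between means of 26.2% ± 0.88 and 19.5% ± 0.57. The groups did not overlap, and the exact two-sided permutation test gave p = 0.1, the smallest that 3 samples against 3 allow. With MIR6087 in the sum, the shares were 13.7% ± 1.55 and 13.2% ± 0.39 and the groups overlapped (exact permutation p = 0.6). Relative to the summed FPKM of all other genes under 1000 FPKM, the family stood at 0.420 ± 0.020 with DMSO and 0.274 ± 0.013 with BCT (exact permutation p = 0.1). In these bulk samples, which report proportions of the sequenced RNA, less of an mRNA per cell and more of other RNA cannot be told apart.

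The medians of the large and small subunit genes lay close together. For the large subunit, 22 of 46 genes were called lower (median -0.84), and for the small subunit 14 of 30 (median -0.83). In every one of the 6 samples the medians of the subunits, each against its DMSO mean, were within 0.013 log2 units of each other. Between samples of a group, the difference of the subunit medians had an SD of 0.0055. The large and small medians themselves had SDs of 0.0897 and 0.0951, but a shift shared by both cancels from their difference. In summed levels, the large subunit genes went from 101120 ± 6587 to 57175 ± 3248 FPKM and the small subunit genes from 78928 ± 5354 to 44914 ± 2693 FPKM. The difference of the subunit medians was -0.01, and it went to -0.06 with the correction for GC content and length and to 0.06 after quantile normalization.

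Within the large subunit, the proteins of the P stalk, which recruits and activates the translation GTPases, were all called lower (4 of 4, median -1.02). The share called lower was 47.4% of the main genes and 17.8% of all genes tested. RPLP0, the stalk's anchor, fell from 4513 ± 357 to 2300 ± 176 FPKM (-0.97), RPLP1 from 4488 ± 325 to 2325 ± 116 FPKM (-0.95) and RPLP2 from 3406 ± 211 to 1617 ± 96.6 FPKM (-1.07). RPL12, which forms the base of the stalk, stood at 2100, 1910 and 2038 FPKM in the DMSO samples and 872, 846 and 783 FPKM in the BCT samples (-1.27, SE 0.06, adjusted p = 9.4e-07 in limma). In each of these genes the highest BCT sample was well below the lowest DMSO sample. RPL12 lost its call after quantile normalization (-0.62) and after rescaling to equal FPKM sums (-0.50). That rescaling moves every gene alike, so RPLP0, RPLP1 and RPLP2, with smaller changes, fall short of the threshold there as well.

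The proteins that reach towards the peptidyl transferase centre, RPL3, RPL4, RPL8 and RPL10, had a median of -0.80 and split, with RPL3 and RPL10 called lower. RPL3 (hg19 chr22:39708887-39715670) showed the largest fall of all main genes: it was at 3124, 2705 and 3013 FPKM in the DMSO samples and 905, 753 and 668 FPKM in the BCT samples (-1.94, SE 0.11, adjusted p = 1.5e-06 in limma). Its mean fell from 2947 ± 217 to 775 ± 120 FPKM, a 3.80-fold decrease. RPL10, which completes the large subunit late in its assembly, fell from 724 ± 61.2 to 384 ± 29.9 FPKM (-0.92). It lost its call with the correction for GC content and length (-0.76) and after quantile normalization (-0.44). Both rescalings to equal sums also took its call away (-0.53 without MIR6087 and -0.15 with it). RPL4 (-0.68) and RPL8 (-0.63) were lower at the FDR alone.

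Within the large subunit, RPL13A and RPL10A had the next largest falls after RPL3. RPL13A, known also as a translational silencer in interferon-treated myeloid cells, was at 1061, 859 and 983 FPKM in the DMSO samples and 313, 305 and 278 FPKM in the BCT samples (-1.69, SE 0.08, adjusted p = 9.9e-07 in limma). The row of its pseudogene RPL13AP5 carries the same position as RPL13A (hg19 chr19:49990811-49995564), so the split of fragments between them is uncertain. The sum of both rows went from 4643 ± 459 to 2256 ± 166 FPKM, a log2 ratio of -1.04. RPL10A, part of the L1 stalk next to the exit site of the tRNA, fell from 1652 ± 112 to 637 ± 37.3 FPKM (-1.38, SE 0.07). RPL10A lost its call after quantile normalization (-0.75) and after rescaling to equal FPKM sums (-0.61).

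RPL5 and RPL11, which together with the 5S rRNA form a particle that also binds MDM2, fell from 1697 ± 130 to 923 ± 30.7 FPKM (-0.88, called lower) and from 2170 ± 119 to 1446 ± 35.3 FPKM (-0.58). The 7 proteins around the exit of the peptide tunnel (RPL17, RPL19, RPL23A, RPL26, RPL31, RPL35 and RPL39) were all lower at the FDR alone, but the median was -0.64 and RPL39 (-0.87) was the only one called. RPL39 lost that call without DMSO replicate 3 (-0.84), with median-of-ratios scaling (-0.83), after quantile normalization (-0.13) and after both rescalings to equal sums (-0.48 without MIR6087 and -0.10 with it).

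The 4 large subunit genes with the smallest change were RPL28 (-0.43), RPL27 (-0.39), RPL24 (-0.38) and RPL36 (-0.34). RPL24, which forms a bridge to the small subunit, was at 1799, 1625 and 1711 FPKM in the DMSO samples and 1343, 1324 and 1270 FPKM in the BCT samples. RPL36 was at 2302, 2136 and 2338 FPKM in the DMSO samples and 1839, 1791 and 1705 FPKM in the BCT samples. In both genes the samples of the groups did not overlap, although the decrease was 1.304-fold and 1.27-fold, and both turned positive after rescaling to equal FPKM sums, with or without MIR6087, and after quantile normalization.

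RPL21 was the one main gene tested that did not pass the FDR (adjusted p = 0.13 in limma). Its row was at 25.4, 14.4 and 43.2 FPKM in the DMSO samples and 6.13, 11.5 and 28.2 FPKM in the BCT samples, so the groups overlapped and the level was far below that of the rest of the family. The row of its pseudogene RPL21P28, on the opposite strand over the same span, held 2621 ± 189 FPKM with DMSO and 1495 ± 53.4 FPKM with BCT (-0.81). The sum of both rows gave a log2 ratio of -0.81, close to the family's median.

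Within the small subunit, RPS24 showed the largest fall (hg19 chr10:79793518-79816571). It was at 3558.5, 3246 and 3378 FPKM in the DMSO samples and 1402, 1260 and 1252 FPKM in the BCT samples (-1.38, SE 0.07, adjusted p = 8.5e-07 in limma). RPS21 fell from 2423 ± 258 to 998 ± 80.0 FPKM (-1.28). RPS2, at the entry of the mRNA channel, fell from 5219 ± 289 to 2175 ± 258 FPKM (-1.27), and RPS14, a platform protein whose loss underlies the anaemia of the 5q- syndrome, from 2286 ± 188 to 1004 ± 88.3 FPKM (-1.19). These 3 genes stood 2.28-fold to 2.43-fold lower with no overlap between groups. RPS24, RPS21, RPS2 and RPS14 all lost their calls after quantile normalization and after rescaling to equal FPKM sums. RPS14 also lost its call after rescaling to equal sums without MIR6087.

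By position in the small subunit, the proteins near the decoding centre and the mRNA entry (RPS2, RPS3, RPS15 and RPS23) had a median of -0.86 with 2 of 4 called lower. Those of the platform and the mRNA exit, among them RPS14, RPS26 and RPSA, had a median of -0.91 with 3 of 5 called lower. The values on this list were far apart: RPSA fell from 2191 ± 136 to 1037 ± 84.3 FPKM (-1.08), while RPS26 changed least of all main genes. RPS26 was at 1203, 1189 and 1178 FPKM in the DMSO samples and 1003, 988 and 935 FPKM in the BCT samples (-0.29, SE 0.05, adjusted p = 6.7e-04 in limma). The beak proteins RPS10, RPS12 and RPS27A had a median of -0.63 with none called. Of the small subunit's main genes tested 46.7% were called lower, and of all genes tested 17.8%.

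RPS13 (1467 ± 113 to 1148 ± 36.97 FPKM, -0.35), RPS27A, which is made as a fusion to ubiquitin (-0.41), and RPS15 (-0.46) completed the small subunit genes with the smallest change. RPS6, the substrate of the S6 kinases downstream of mTOR, went from 3470 ± 223 to 2465 ± 178 FPKM (-0.49, SE 0.07). RPS13, RPS15, RPS26 and RPS27A turned positive after rescaling to equal FPKM sums and after quantile normalization. The 9 genes tested of a list mutated in Diamond-Blackfan anaemia, an inherited failure of red cell formation, spanned the small subunit's whole range, from RPS24 (-1.38) to RPS26 (-0.29). Their median was -0.78 and 3 (33.3%) were called lower, against 47.4% of the main genes and 17.8% of all genes tested.

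RPS18 was the one family row placed on an alternative haplotype sequence (6_ssto_hap7). It went from 7685 ± 621 to 4887 ± 268 FPKM (-0.65).

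The paralogs differed in direction among themselves. At the FDR alone, 3 of the 5 tested were higher and 2 were lower. RPL22L1 was called lower and RPS27L was called higher, so that over all 81 ribosomal protein genes tested 37 were called lower and 1 higher. In RPS27L, RPL26L1 and RPL7L1 every BCT sample was above every DMSO sample, as in 41% of all genes tested. All 5 were expressed at much lower levels than their main genes with DMSO, between 75.6 and 94.4 FPKM on average.

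RPL22L1 (hg19 chr3:170582665-170588045) had the largest log2 fold change of the family members tested. It was at 93.9, 96.6 and 92.7 FPKM in the DMSO samples and 17.5, 14.5 and 13.8 FPKM in the BCT samples (-2.63, SE 0.09, adjusted p = 2.8e-07 in limma), a 6.19-fold decrease. Its main gene RPL22, whose protein is known to bind the RPL22L1 transcript, went from 374 ± 25.4 to 206 ± 15.9 FPKM (-0.86), and lost its call with either DMSO replicate 1, BCT replicate 2 or BCT replicate 3 left out (-0.809, -0.815 and -0.849), as well as with median-of-ratios scaling (-0.82), the correction for GC content and length (-0.83), quantile normalization (-0.50) and both rescalings to equal sums (-0.48 without MIR6087 and -0.09 with it). RPL22L1 stood at 25.3% ± 2.01 of the RPL22 level with DMSO and at 7.40% ± 0.52 with BCT. The log2 ratio of paralog to main gene, from which the scaling of a sample cancels, thus changed by -1.77.

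RPS27L (hg19 chr15:63445539-63449741), a known p53 target gene, moved the other way. It was at 73.8, 75.9 and 77.0 FPKM in the DMSO samples and 145, 143 and 143 FPKM in the BCT samples (0.93, SE 0.04, adjusted p = 8.3e-07 in limma), a 1.90-fold increase, and fell just short of the threshold with the correction for GC content and length (0.84). RPS27 was at 7312, 6467 and 7084 FPKM in the DMSO samples and 4657, 4309 and 4206 FPKM in the BCT samples (-0.66). RPS27L thereby went from 1.09% ± 0.08 to 3.28% ± 0.15 of the RPS27 level, a change of the log2 ratio by 1.59.

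RPL26L1 rose from 80.7 ± 3.71 to 100.1 ± 1.87 FPKM (0.31, adjusted p = 4.6e-04 in limma) and RPL7L1 from 91.4 ± 3.57 to 100.8 ± 2.52 FPKM (0.14, adjusted p = 0.026 in limma), while RPL26 (-0.76) and RPL7 (-0.78) fell. Their log2 ratios to the main gene changed by 1.07 and 0.92. The rise of RPL7L1 itself did not pass the FDR of 0.05 in limma without DMSO replicate 2 (adjusted p = 0.051) or without DMSO replicate 3 (adjusted p = 0.086). RPL39L, a paralog best known from the testis, fell from 79.3 ± 3.61 to 56.1 ± 5.53 FPKM (-0.50), by less than RPL39 (-0.87), so that its log2 ratio changed by 0.37. For all 5 pairs the samples of the groups did not overlap in this ratio, and each exact two-sided permutation test gave p = 0.1 (0.1 after adjustment over the 5 pairs), the smallest possible. Quantile normalization, which does not cancel from the ratio, turned that of RPL39L to -0.21 and left the other pairs in their direction.

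The remaining paralogs were below the filter. RPL3L, the striated muscle form of RPL3, was at 0.055, 0.042 and 0.105 FPKM in the DMSO samples and 0.420, 0.526 and 0.539 FPKM in the BCT samples, with no overlap but at levels under 1 FPKM throughout. RPL10L was listed at 0 in all samples.

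Other genes whose mRNAs are known to carry a TOP tract gave values like those of the family. All 18 of this list were negative, with a median of -0.83. Of these, 8 (44.4%) were called lower and 15 (83.3%) were lower at the FDR alone, against 17.8% and 42.8% of all genes tested. The EEF and EIF genes of this list are also counted among the translation factors below. HNRNPA1, a splicing factor, fell from 1017 ± 55.9 to 301 ± 32.03 FPKM (-1.76) and NAP1L1, a histone chaperone, from 404 ± 11.0 to 123 ± 6.53 FPKM (-1.72). The elongation factor EEF1A1 was at 5810, 4743 and 5363 FPKM in the DMSO samples and 2112, 2039 and 1896 FPKM in the BCT samples (-1.39). At the other end, EIF3E (-0.10, adjusted p = 0.11 in limma) and BTF3 (-0.12, adjusted p = 0.072 in limma) did not pass the test.

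Ribosomal protein genes with other symbols changed by less than the family's median, and none of those described here was called. GNB2L1, which encodes RACK1 of the small subunit, fell from 1488 ± 115 to 914 ± 34.8 FPKM (-0.70). FAU, made as a fusion to a ubiquitin-like protein, went from 1207 ± 59.5 to 1077 ± 47.9 FPKM (-0.17, adjusted p = 0.03 in limma), and RPL36AL, a close copy of RPL36A, was at 429 ± 15.1 and 410 ± 10.5 FPKM (-0.07, adjusted p = 0.23 in limma). FAU and RPL36AL were thus nearer to zero than any main gene.

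The values of the mitochondrial ribosomal proteins and of the translation factors were spread around zero instead. Of the 77 mitochondrial genes 4 (5.2%) were called lower and 7 higher (median -0.06), both below the 17.8% and 13.9% of all genes tested. Of the 62 translation factors tested, from 71 listed, 11 were called lower and 7 higher (median 0.06), shares near the 17.8% and 13.9% of all genes tested, and the TOP mRNA genes EEF1A1, EEF1G (-0.89) and EIF4B (-0.90) were among those called lower. No test was made between these lists, whose genes are not independent of each other.

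**Figure D2:**
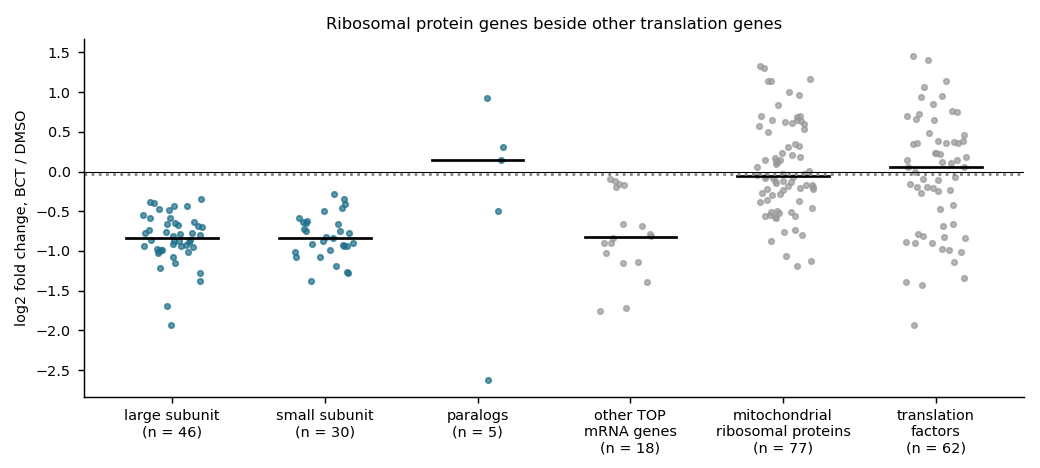
Log2 fold change (BCT against DMSO, log2(FPKM + 0.1)) of single genes, one point each, in 6 groups of translation genes; black bars are group medians and the dotted line the median of all genes tested. The 46 large subunit and 30 small subunit points all lie below zero (medians -0.84 and -0.83), as do the other TOP mRNA genes (median -0.83), while the mitochondrial ribosomal proteins and translation factors straddle zero (medians -0.06 and 0.06). The EEF and EIF genes among the TOP mRNA genes appear again as translation factors.

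Features that could touch the estimates were recorded beside the values. Small nucleolar RNA genes lie inside 26 of the main genes tested, of which 17 (65.4%) were called lower (median -0.94), against 19 of the 50 without (38.0%, median -0.78). Of all genes tested, 17.8% were called lower. Whether reads from small nucleolar RNAs or their host introns added to the FPKM was not tested. Readthrough rows that join a member to its neighbour were low: RPL17-C18orf32 was at 1.55 ± 0.46 and 1.76 ± 0.92 FPKM, and RPL36A-HNRNPH2 at 38.1 ± 1.96 and 39.4 ± 3.51 FPKM. After a loess correction for GC content and transcript length, the median of the main genes was -0.76 (all genes 0.02), RPL36 turned to 0.03, and 27 main genes were called lower.

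A scaling that multiplies all values of a sample moves every gene alike, so it keeps the distance between the family and the other genes but can turn the sign of single members. Relative to the median of all genes, the median of the main genes was -0.80 in the deposited values, -0.79 after median-of-ratios scaling and -0.78 after rescaling to equal FPKM sums. Rescaling to equal sums without MIR6087 put the median of the main genes at -0.45, that of all genes at 0.34, 4 main genes above zero and 7 called lower. Quantile normalization, which gives the highest genes of every sample like values, brought the median of the main genes to -0.16 (all genes 0.03) with 24 above zero and 2 called lower. RPL3, RPL13A and RPL22L1 were called lower under each of these scalings and with the correction for GC content and length, RPL3 at -1.17 and RPL13A at -0.92 after rescaling to equal sums. For RPL13A this holds for its own row, whose split of fragments with RPL13AP5 is uncertain. The sum of both rows, at -1.04 in the deposited values, was not fitted under these scalings. Both rescalings to equal sums move every gene alike, and RPS14 (-1.19) lost its call in both. With its smaller change, the sum of both rows is thus short of the threshold there as well.

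**Figure D3:**
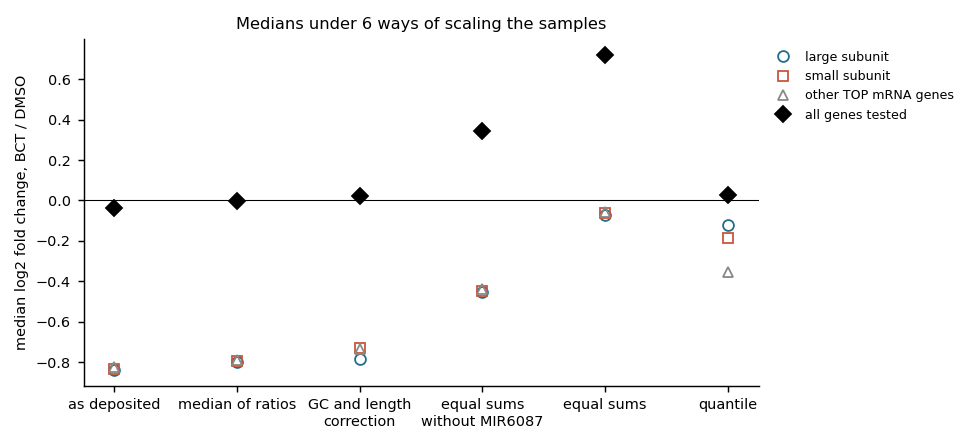
Median log2 fold change (BCT against DMSO) of the large subunit genes (circles), small subunit genes (squares), other TOP mRNA genes (triangles) and all genes tested (black diamonds) under 6 ways of scaling the samples. Circles and squares stay at a like distance below the diamonds (-0.80 as deposited) in all but quantile normalization (-0.19), and both shift up together to -0.06 (main genes) and 0.72 (all genes) with equal sums.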

How the data were processed

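The authors made TruSeq libraries from total RNA of 3 vehicle and 3 BCT samples of 22RV1 cells. Their processing notes name CASAVA, Trimmomatic 0.38, HISAT2, HTSeq and hg19, and their methods StringTie. The FPKM values deposited by the authors are scaled to transcript length and mapped fragments. The gene annotation, the treatment of multi-mapping fragments and the strand setting are not given in the sources used here. FPKM hold no counts, so no count model was fitted. From the steps between low FPKM values, the depth of the libraries relative to the first DMSO sample was 0.877 to 1 (DMSO) and 1.05 to 1.14 (BCT).

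The values were left at the deposited scale. Log2(FPKM + 0.1), a scale on which changes of low genes are understated, was tested with limma (version 3.58.1, R 4.3.3, trended eBayes) over all 6 samples and the 12729 genes whose mean reached 1 FPKM, with Benjamini-Hochberg adjustment over these genes. Genes with an FDR under 0.05 and an absolute log2 fold change over 0.85 were called. Single values per sample were compared by exact two-sided permutation. The steps were tested on simulated data. Nothing states that the samples are separate cultures, so p-values measure the spread between these samples, which may be technical.

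The family, its role lists and the comparison lists were written from general knowledge and chosen with earlier results of these data known, so no list was tested as a set. Named were all paralogs with their main genes, the 4 genes at either end of each subunit, the members of the role lists and up to 4 genes at either end of the comparison lists, with the 3 highest pseudogene rows. RPL41, RPL21, RPS18 and the readthrough rows, as well as EEF1G, EIF4B, MYC, EIF4EBP1, LARP1, MDM2, LTV1 and the genes of the start windows, were chosen after their values were seen. Some genes of the family and of the lists are counted in the summaries but not reported here.

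Gene positions are on hg19, as in the authors' tables, whose starts count from 0: adding 1 gave a GENCODE transcript start for 8448 genes, against 911 without. Sequences come from RefSeq on GRCh38.p14. Alternatives covered pseudocount, filter, 4 scalings, FDR, variance trend, replicate block and each sample left out. The correction for GC content and length (loess, span 0.5) was added after seeing the data.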

Additional observations from a re-analysis of the deposited data

How the results depend on the processing

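Rescaling to equal FPKM sums left 3 members called lower, 3 higher, 15 lower and 15 higher at the FDR alone, with medians of -0.064 (main genes and small subunit) and -0.070 (large). Without MIR6087 in the sums, 8 were called lower, with medians of -0.45 for main, large and small subunit genes. Quantile normalization left 3 called lower, 44 lower and 22 higher at the FDR alone, medians of -0.16 (main), -0.12 (large) and -0.18 (small), a difference of the subunits of 0.065, and a median of the main genes relative to all genes of -0.19. With no filter this distance was -0.88 and RPL3L made 2 called higher. The GC and length correction gave 0 called higher, a small subunit median of -0.73, a difference of the subunits of -0.055 and RPL36 at 0.028. Positive under quantile normalization and equal sums were RPL24 (0.30, 0.39), RPL27 (0.31, 0.38), RPL28 (0.12, 0.34), RPL36 (0.42, 0.42), RPS13 (0.29, 0.42), RPS15 (0.24, 0.30), RPS26 (0.31, 0.48), RPS27 (0.10, 0.11) and RPS27A (0.24, 0.36). Equal sums also turned RPL26 (0.0060) and RPL39L (0.27), and equal sums without MIR6087 turned RPL24 (0.0046), RPL36 (0.042), RPS13 (0.036) and RPS26 (0.10). Against RPL39, RPL39L went to -0.21 with quantile normalization. Leaving out each sample in turn gave 33 to 42 called lower, 77 to 78 lower and 2 to 3 higher at the FDR alone, main medians of -0.89 to -0.80, subunit differences of -0.012 to 0.017 and share differences of -7.255 to -6.48 points. Of 486 values of 27 named genes, 427 kept direction and call, 31 lost a call, 3 gained one and 25 turned; the causes were not tested. Other pseudocounts, a mean of at least 5 FPKM, an FDR of 0.01 and no variance trend kept the counts within 1.5 times.

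Samples with the same replicate number deviated together with correlations of 0.116, 0.033 and 0.034, so the numbers are not treated as pairs. With the replicate block, 38 members were called lower and 1 higher. FPKM hold no read numbers, so the depth behind a single member is unknown.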

Other observations

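Of 17 genes tested that handle ribosomal proteins or control their production, 3 were called lower and 2 higher, near the 17.8% and 13.9% of all genes tested, and the median log2 fold change was 0.17. MYC, a transcription factor that drives ribosome production, fell from 122 ± 6.97 to 27.0 ± 3.90 FPKM (-2.18, adjusted p = 7.8e-07 in limma), and EIF4EBP1, the translation repressor that mTOR inactivates, from 109 ± 3.84 to 28.9 ± 6.79 FPKM (-1.93). The third gene called lower, NAP1L1, is also on the list of TOP mRNA genes. LARP1, which binds TOP mRNAs, went from 53.7 ± 2.52 to 39.4 ± 2.84 FPKM (-0.45), short of the call. MDM2, the p53 ligase bound by RPL5 and RPL11, rose from 22.7 ± 0.65 to 42.4 ± 1.79 FPKM (0.90), and LTV1, an assembly factor of the small subunit, went from 33.6 ± 1.20 to 49.7 ± 1.09 FPKM (0.56).

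Of 31 rows named as ribosomal protein pseudogenes, 13 passed the filter, with a median of -0.27. Of these, 3 (23.1%) were called lower, near the 17.8% of all genes tested. The rows with the highest level were RPL13AP5 (3676 ± 365 to 1958 ± 149 FPKM) and RPL21P28 (2621 ± 189 to 1495 ± 53.4 FPKM), which share their span with RPL13A and RPL21. RPSAP58 went from 32.7 ± 2.94 to 14.2 ± 1.78 FPKM (-1.20), next to -1.08 for RPSA.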
